A study of Mus musculus with 11 samples.

Results

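The prostaglandin genes examined here are 10 of the 32868 genes that carry a symbol in the deposited table: the cyclooxygenases Ptgs1 and Ptgs2, the prostaglandin E synthases Ptges, Ptges2 and Ptges3, the prostacyclin synthase Ptgis, the receptors Ptgfr, Ptger2 and Ptger4, and the inactivating enzyme Hpgd. They were chosen by symbol, with earlier results of these data known, and all 10 symbols were found. Ptges2 and Hpgd were too low to judge, and the other 8 passed the count filter.

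Primary fibroblasts of the neonatal mouse lung were sorted by flow cytometry and sequenced in bulk as 11 libraries. Batch 2 held 2 libraries from cells lacking peptidylarginine deiminase 2 (PAD2KO 6 and PAD2KO 7) and 3 wild-type libraries (WT 5, WT 6 and WT 7). Batch 1 held PAD2KO 1, PAD2KO 2 and PAD2KO 3 with WT 1, WT 3 and WT 4. Peptidylarginine deiminase 2, encoded by Padi2, converts arginine in proteins to citrulline. The title of the study speaks of basal and TNF-induced expression, but the labels give these libraries no treatment, and no source used here says whether any cells received TNF. What separates the batches, the sorting gate, the removed stretch of Padi2 and the exact age are likewise not given in those sources. The labels do not tie the libraries of a group to separate animals or cultures. The p-values therefore measure how far these libraries spread, and that spread may be technical.

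Prostaglandins are lipid messengers made from arachidonic acid, which phospholipases free from membranes. Cyclooxygenases turn arachidonic acid into prostaglandin H, and separate synthases turn that into prostaglandin E, prostacyclin and other end products. Ptgs1 is the form that many cells hold at rest, and Ptgs2 is the form that cytokines, growth factors and stretch induce. Lung fibroblasts are a known source of prostaglandin E, which acts back on them through the receptors EP2 and EP4, raises cyclic AMP and restrains growth and collagen output.

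Ptgs2 and Ptges had the largest rises between the batches by counts, and Ptgs1 was the most abundant member in batch 1, so the promoters of these 3 genes are shown. Each sequence runs from 250 bases before to 50 bases after the annotated start, taken from RefSeq on GRCm38.p6, the last base before the start being −1 and the first base from it 1. Capitals mark the motif matches found on either strand; the Ptgs2 promoter lies at chr1:150099781-150100080 on the plus strand, that of Ptges at chr2:30903248-30903547 on the minus strand and that of Ptgs1 at chr2:36230176-36230475 on the plus strand.
Ptgs2: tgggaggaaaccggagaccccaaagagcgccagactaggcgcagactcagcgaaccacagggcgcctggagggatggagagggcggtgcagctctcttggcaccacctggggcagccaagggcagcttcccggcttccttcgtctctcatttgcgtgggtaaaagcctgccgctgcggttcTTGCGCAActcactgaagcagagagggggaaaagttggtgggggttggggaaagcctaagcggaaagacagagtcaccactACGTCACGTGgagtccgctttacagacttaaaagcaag
Ptges: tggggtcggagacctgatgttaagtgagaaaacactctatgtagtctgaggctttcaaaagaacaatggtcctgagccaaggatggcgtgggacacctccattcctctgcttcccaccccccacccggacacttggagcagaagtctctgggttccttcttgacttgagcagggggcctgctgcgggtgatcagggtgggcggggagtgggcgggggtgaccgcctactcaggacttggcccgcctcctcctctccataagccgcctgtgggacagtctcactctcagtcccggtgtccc
Ptgs1: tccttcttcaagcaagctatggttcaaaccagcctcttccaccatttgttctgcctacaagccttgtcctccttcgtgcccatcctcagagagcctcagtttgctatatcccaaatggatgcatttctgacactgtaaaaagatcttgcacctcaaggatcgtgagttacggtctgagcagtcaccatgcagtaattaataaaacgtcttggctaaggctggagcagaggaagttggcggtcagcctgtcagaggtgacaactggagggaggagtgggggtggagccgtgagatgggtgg

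The Ptgs2 promoter held a C/EBP site (searched as TTGCNNAA) starting at −69, the core of a cyclic AMP response element (TGACGT, on the other strand) starting at 13 and an E box (CACGTG) starting at 17 that overlaps it. Of 27025 promoters of the same length, 10.8% held a C/EBP site, 7.64% that core and 7.24% an E box. The full element TGACGTCA (1.88% of promoters), an AP-1 site searched as TGANTCA (7.93%), a TATA box searched as TATANA (25.4%) and the NF-kB consensus (8.18%) had no match in this window of Ptgs2, Ptges or Ptgs1. GC content was 59.3% for Ptgs2, 60.0% for Ptges and 50.7% for Ptgs1, beside a median of 52.7% over all promoters. A match in these letters is a description of sequence and was not measured as binding. A promoter entry was found for 9 of the 10 members, Ptgis being the exception.

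Libraries held 962633 to 1421243 counts in named genes, and a gene with 0 counts may still stand as high as 2.11 to 3.12 CPM, depending on the library (CPM, counts scaled to a total of 1000000). Intervals and limits of this kind cover counting error only, since reads without molecular identifiers are not independent molecules. Padi2 itself had 0 to 4 counts in every library of both genotypes and does not check the genotype labels. Fibroblast markers were present throughout, with 9 of 9 genes detected, and their summed level was 4481 to 4603 CPM in PAD2KO batch 2, 5079 to 5569 CPM in WT batch 2, 10550 to 12410 CPM in PAD2KO batch 1 and 11270 to 14980 CPM in WT batch 1. Of 8 fibroblast markers tested, 6 were lower and 1 higher in batch 2 in PAD2KO, where 9.13% of all genes were lower and 9.52% higher. In WT 5 were lower and 0 higher, where 10.6% were lower and 11.7% higher. The summed level of leukocyte markers moved the other way from that of fibroblast markers. It was 69.9 to 124 CPM in PAD2KO batch 2, 182 to 308 CPM in WT batch 2, 21.8 to 56.4 CPM in PAD2KO batch 1 and 20.1 to 62.3 CPM in WT batch 1. All 10 of 10 had counts, but 3 were tested and 1 was called higher in batch 2 in each genotype. Much of the sum came from S100a8 (66.6 to 139.5 CPM in WT batch 2, 0 in WT batch 1) and Lyz2 (27.3 to 164 and 7.25 to 46.6 CPM). The pan-leukocyte gene Ptprc had 0 to 4 counts per library and summed to 4 counts in WT batch 2 and 7 in WT batch 1. Smooth muscle and pericyte markers, 7 of 7 detected, summed to 3653 to 4613 CPM in PAD2KO batch 2, 1390 to 1720 CPM in WT batch 2, 4632 to 7106 CPM in PAD2KO batch 1 and 6124 to 6687 CPM in WT batch 1. Mesothelial markers, 5 of 5 detected, summed to 50.1 to 91.1 CPM and 52.6 to 90.8 CPM in PAD2KO and WT of batch 2, and to 90.8 to 255 CPM and 200.4 to 348 CPM in PAD2KO and WT of batch 1. Mast cell markers, 5 of 5 with a count in some library, summed to 3.28 to 5.56 CPM and 6.35 to 12.6 CPM in PAD2KO and WT of batch 2, and to 29.7 to 36.4 CPM and 35.5 to 59.7 CPM in PAD2KO and WT of batch 1. Only 1 of these 5 genes was tested. No count was found for 3 of them in WT batch 2, 3 in WT batch 1 and 2 in PAD2KO batch 1, so the sum does not describe the list as a whole. Platelet, endothelial and epithelial markers stayed at or below 41.9 CPM, and the epithelial genes Sftpc and Scgb1a1 had no count in any library. In bulk RNA, fewer cells of a type and less RNA per cell cannot be told apart, and the part of these markers in the results on prostaglandin genes was not tested.

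Per transcript length, in transcripts scaled to a total of 1000000 (TPM), the members differed widely in level. Averaged over the 11 libraries, Ptgs1 came first at 544 TPM (471 to 739 TPM), followed by Ptges at 358 TPM, Ptgs2 at 296 TPM, Ptges3 at 113 TPM, Ptgis at 90.2 TPM and Ptger2 at 33.6 TPM. Ptger4 at 2.89 TPM, Ptgfr at 2.83 TPM, Ptges2 at 1.35 TPM and Hpgd at 0.629 TPM formed a low tail. The order depended on the batch. In WT batch 2, Ptges (611 to 659 TPM) and Ptgs2 (526.4 to 668 TPM) overlapped each other, and Ptgs2 overlapped Ptgs1 (487 to 531 TPM). In WT batch 1, Ptgs1 (484 to 582.4 TPM) stood above Ptges (144.5 to 150.3 TPM), which stood above Ptgs2 (64.4 to 109 TPM). The lowest 4 members overlapped one another over the libraries.

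**Figure D1:**
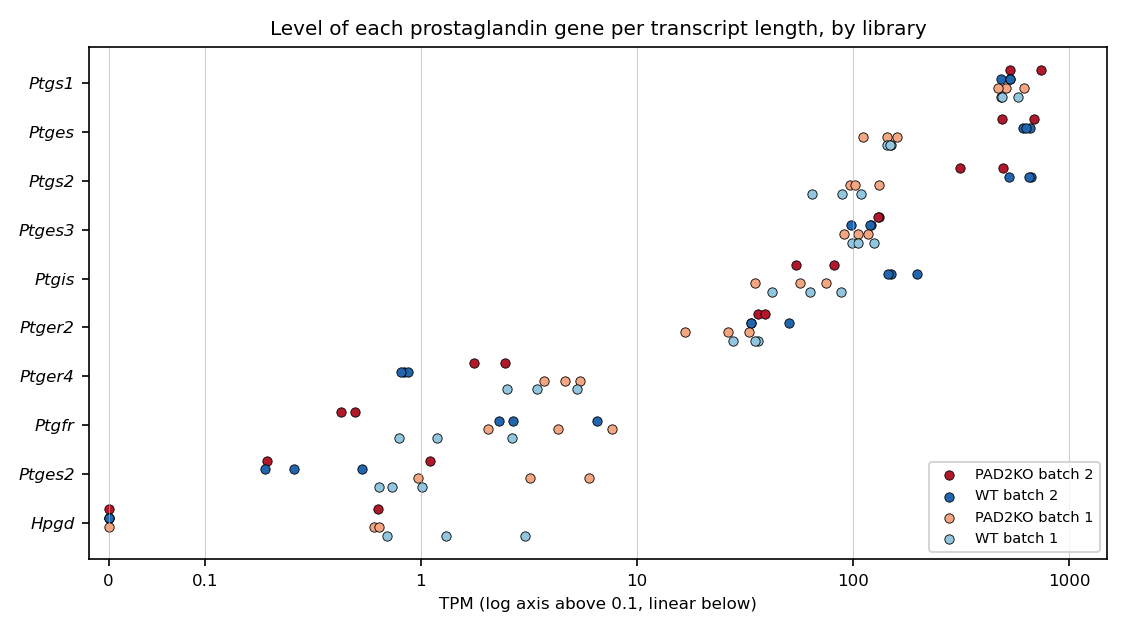
Each point is a library and each row a prostaglandin gene, ordered by its mean level; the x axis is TPM, linear below 0.1 and logarithmic above, and the 4 rows of points within a gene are PAD2KO batch 2, WT batch 2, PAD2KO batch 1 and WT batch 1. Ptgs1 lies at 471 to 739 TPM in all libraries, Ptgs2 and Ptges separate by batch, and the lowest 4 genes stay under 10 TPM.

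More members were called between batches than between genotypes, as held for all 9932 genes tested. Batch 2 against batch 1 changed 5 of the 8 tested members in PAD2KO, all 5 higher, where 18.7% of all genes were called (9.52% higher, 9.13% lower). In WT it changed 5 of 8, 4 higher and 1 lower, where 22.3% were called (11.7% higher, 10.6% lower). PAD2KO against WT changed 1 of 8 members in batch 2, lower, against 3.11% of all genes (1.4% higher, 1.71% lower), and 0 of 8 in batch 1, against 0.131% of all genes (0.0201% higher, 0.111% lower). The WT calls between batches include Ptgfr and Ptger4, and the genotype call in batch 2 is Ptgfr. Both genes are low and passed the count filter through libraries where they are higher, which limits these counts. For batch 1, no member had an unadjusted p under 0.05 in edgeR's quasi-likelihood test, where 5.49% of all genes did, and DESeq2 called 0 members as well. The median log2 fold change of the tested members was 0.45 for batch 2 over batch 1 in PAD2KO and 0.94 in WT, where the median of all genes was −0.02 and 0.00. For PAD2KO over WT it was −0.11 in batch 2 and −0.06 in batch 1, with medians of all genes of −0.01 and 0.00. The comparisons between batches and those between genotypes share libraries, and the members are too few for their share to set them apart from other genes. The members were also chosen with earlier results of these data known, so their share is a description and not a test. All adjusted p-values below are from edgeR's quasi-likelihood test with Benjamini-Hochberg adjustment over the 9932 genes, and a gene is said to have changed where that value is under 0.05.

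**Figure D2:**
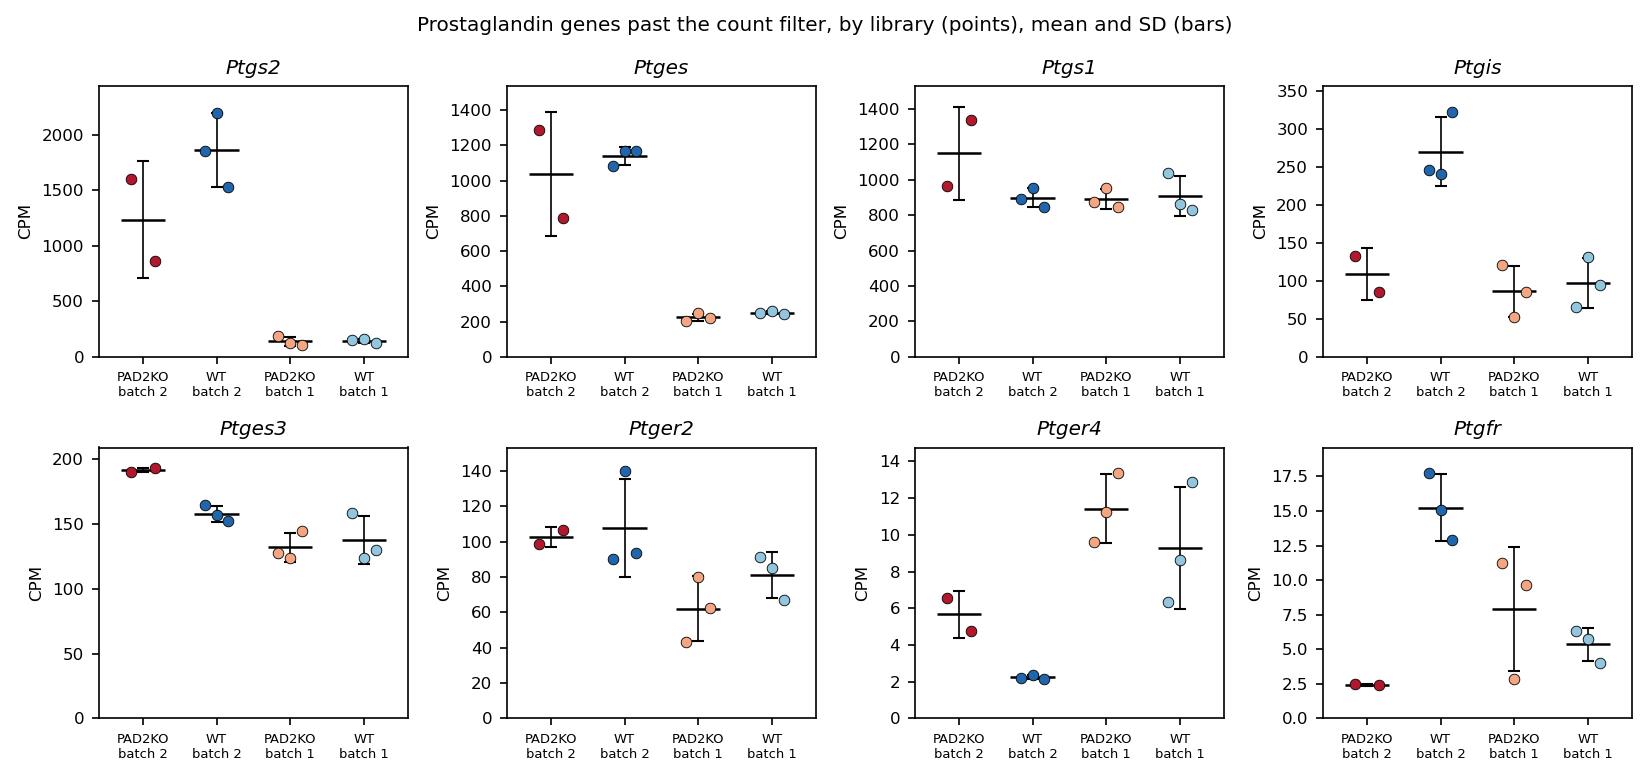
CPM of the 8 tested prostaglandin genes on linear axes that start at 0, with 1 point per library, a horizontal line for the group mean and a bar for 1 SD either side (n = 2 for PAD2KO batch 2, n = 3 for the other groups). Ptgs2 and Ptges in batch 2 lie above every library of batch 1, and Ptgis and Ptgfr are highest in WT batch 2.

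Ptgs2 (chr1:150100031-150108227 on GRCm38), the inducible cyclooxygenase, had 1608 and 864.5 CPM in PAD2KO 6 and PAD2KO 7 and 1855, 2199 and 1535 CPM in WT 5, WT 6 and WT 7. In batch 1 it had 189, 123 and 109 CPM in the PAD2KO libraries and 149, 163 and 124 CPM in the WT libraries. Every library of batch 2 lay above every library of batch 1, and within batch 2 the genotypes overlapped in CPM, while in TPM both PAD2KO libraries lay below the 3 WT libraries. The fitted log2 fold change of batch 2 over batch 1 was 3.14 ± 0.327 (SE) in PAD2KO, an 8.83-fold difference (adjusted p = 0.000352), and 3.68 ± 0.315 in WT, a 12.8-fold difference (adjusted p = 6.93e-05). The difference between genotypes in this batch effect was −0.54 (95% interval −1.56 to 0.49, adjusted p = 0.729). Leaving out each library in turn kept both batch calls in 11 of 11 fits.

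The size of the Ptgs2 difference depended on how transcript length was treated. The deposited effective length of Ptgs2 is the length by which its counts are divided to give TPM. It is not a mean over reads and does not give the share of reads from short transcripts. For Ptgs2 it was 3722 and 3161 bases in PAD2KO 6 and PAD2KO 7 and 3167, 3785 and 3344 bases in WT 5, WT 6 and WT 7. In batch 1 it was 1671, 1596 and 1325 bases in the PAD2KO libraries and 2007, 3067 and 1446 bases in the WT libraries. The batches did not overlap, and a shift as large as this one (0.95 on the log2 scale) was found for 39 of 9932 tested genes (0.393%), the median absolute shift being 0.06. Mean TPM, which divides by that length, was 405 ± 129 in PAD2KO and 616.5 ± 78.3 in WT of batch 2 and 110 ± 19.4 in PAD2KO and 87.5 ± 22.2 in WT of batch 1 (SD, n = 2, 3, 3 and 3). That is a batch ratio of 3.67 in PAD2KO and 7.05 in WT. With the lengths as offsets in the fit, the log2 fold change was 1.95 in PAD2KO (adjusted p = 1.5e-04) and 2.95 in WT (adjusted p = 1.47e-06), so the rise was called either way and its size was not settled. GENCODE M21 lists a 4453-base and a 358-base transcript for Ptgs2, and reads per transcript were not analysed here.

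**Figure D3:**
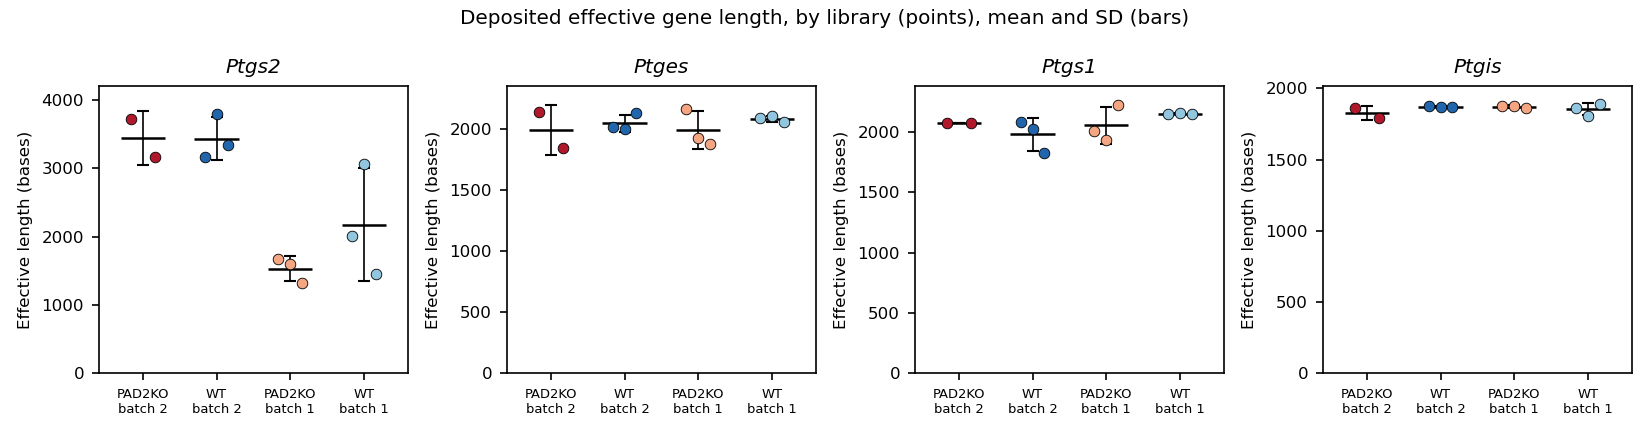
Deposited effective length in bases, on linear axes from 0, for Ptgs2, Ptges, Ptgs1 and Ptgis, with 1 point per library and the group mean with 1 SD either side (n = 2 for PAD2KO batch 2, n = 3 for the other groups). Ptgs2 is at 3161 to 3785 bases in batch 2 and 1325 to 3067 bases in batch 1, while the batches overlap for the other 3 genes.

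Ptgs1 (chr2:36230426-36252272), the cyclooxygenase present at rest, stayed close to the same level in most libraries. It had 965 and 1336 CPM in PAD2KO batch 2 and 892, 954 and 847 CPM in WT batch 2, against 877, 953 and 846 CPM in PAD2KO batch 1 and 1040, 861 and 832 CPM in WT batch 1. PAD2KO 7 stood apart from the other libraries of its genotype. In PAD2KO the batch difference was 0.37 ± 0.127 (log2, SE; adjusted p = 0.0436), with no overlap in CPM but with overlap in TPM. That call was kept in 5 of 11 fits that left out a library: it was lost without WT 3, WT 5, WT 6, PAD2KO 1, PAD2KO 3 or PAD2KO 7, with log2 fold changes of 0.10 to 0.38 in those fits and 0.10 (adjusted p = 0.745) without PAD2KO 7. It was also lost with upper-quartile normalization (adjusted p = 0.0516), with the genotype fitted alone (adjusted p = 0.0644), with DESeq2 (adjusted p = 0.0682) and with length offsets (adjusted p = 0.202), and so held in 10 of 20 settings. In WT the batch difference was −0.02 (95% interval −0.26 to 0.21, adjusted p = 0.926).

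The balance of the cyclooxygenases, read per length, followed Ptgs2. Ptgs2 made up 48.2% and 29.8% of cyclooxygenase TPM in PAD2KO 6 and PAD2KO 7 and 57.8%, 55.3% and 49.8% in the WT libraries of batch 2. In batch 1 it made up 20.6%, 13.5% and 17.8% in PAD2KO and 13.3%, 11.8% and 18.1% in WT. The batches did not overlap, PAD2KO 7 being the nearest of batch 2 to batch 1.

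Ptges (chr2:30889471-30929863), the inducible prostaglandin E synthase that works with Ptgs2, had 1287 and 789.8 CPM in PAD2KO batch 2 and 1081, 1168 and 1169 CPM in WT batch 2. In batch 1 it had 205.5, 246 and 219 CPM in PAD2KO and 251, 260.5 and 241.5 CPM in WT. The batches were separate, and PAD2KO 7 was the lowest library of batch 2, as for Ptgs2. The log2 fold change of batch 2 over batch 1 was 2.21 ± 0.145 (SE) in PAD2KO, 4.64-fold (adjusted p = 7.96e-11), and 2.18 ± 0.136 in WT, 4.54-fold (adjusted p = 1.27e-11). Its effective length overlapped between the batches, TPM gave ratios of 4.27 in PAD2KO and 4.28 in WT, and both calls were kept in 11 of 11 fits without a library. The difference of the batch effects between genotypes was 0.03 (95% interval −0.38 to 0.44).

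Ptges3 (chr10:128058954-128077272) encodes p23, an Hsp90 co-chaperone that also has prostaglandin E synthase activity. It had 190.5 and 193 CPM in PAD2KO batch 2, 165, 157 and 152.5 CPM in WT batch 2, 128, 124 and 145 CPM in PAD2KO batch 1 and 159, 124 and 130.4 CPM in WT batch 1. PAD2KO batch 2 lay above the other 3 groups. The batch difference passed in PAD2KO at 0.54 ± 0.131 (log2, SE; adjusted p = 0.00423), in 11 of 11 fits without a library, but not with length offsets (0.41, adjusted p = 0.152). In WT it was 0.20 (95% interval −0.04 to 0.45, adjusted p = 0.251).

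Ptgis (chr2:167191805-167240604), which makes prostacyclin, was high in a single group. It had 133 and 85.0 CPM in PAD2KO batch 2 and 247, 241.5 and 323 CPM in WT batch 2. In batch 1 it had 120.4, 52.8 and 85.4 CPM in PAD2KO and 65.5, 132 and 94.2 CPM in WT. WT batch 2 lay above every other library, and the remaining 3 groups overlapped. The batch difference was 1.462 ± 0.340 (log2, SE) in WT, 2.75-fold (adjusted p = 0.0178), a call lost without WT 4 (adjusted p = 0.0582) or WT 7 (adjusted p = 0.0531). In PAD2KO it was 0.35 (95% interval −0.60 to 1.299, adjusted p = 0.642). Within batch 2, PAD2KO was at 0.405 of WT, a log2 fold change of −1.30 ± 0.387 that missed the threshold (adjusted p = 0.154). It was called with the batch fitted alone (adjusted p = 0.0021) and by DESeq2 (adjusted p = 0.0492). The difference of the batch effects between genotypes was −1.11 (95% interval −2.36 to 0.13, adjusted p = 0.487).

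Of the receptors, Ptger2 (chr14:44988195-45003820) encodes EP2 and was the most abundant. It had 98.5 and 106.5 CPM in PAD2KO batch 2, 90.1, 140 and 93.4 CPM in WT batch 2, 43.4, 80.2 and 62.4 CPM in PAD2KO batch 1 and 91.5, 84.9 and 66.8 CPM in WT batch 1. The batches were separate in PAD2KO and overlapped in WT. The batch difference was 0.71 ± 0.226 (log2, SE; adjusted p = 0.0353) in PAD2KO, a call lost without WT 3, PAD2KO 1, PAD2KO 3, PAD2KO 6 or PAD2KO 7 (adjusted p up to 0.206) and with length offsets (adjusted p = 0.141). In WT it was 0.41 (95% interval −0.005 to 0.83, adjusted p = 0.156).

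Ptger4 (chr15:5206661-5244187), which encodes EP4, went the other way at low counts. It had 8 and 6 counts in PAD2KO batch 2, 3, 3 and 2 counts in WT batch 2, 12, 16 and 18 counts in PAD2KO batch 1 and 8, 12 and 16 counts in WT batch 1. In CPM every library of batch 2 was below every library of its genotype in batch 1. Summed over libraries and scaled for depth, WT batch 2 stood at 0.244 of WT batch 1 (8 against 36 counts, 95% exact counting interval 0.0982 to 0.535), and PAD2KO batch 2 at 0.493 of PAD2KO batch 1 (14 against 46 counts, 0.250 to 0.913). The fitted log2 fold change was −1.005 ± 0.451 (SE; adjusted p = 0.126) in PAD2KO and −1.99 ± 0.504 (adjusted p = 0.00409) in WT. Ptger4 passed the count filter through batch 1, where it is higher, and fell below the filter without WT 3 or WT 4 and with the WT libraries fitted alone, so the WT call has no value in those fits.

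Ptgfr (chr3:151796502-151837630), the receptor for prostaglandin F, was the only member called between the genotypes, and in batch 2 only. It had 3 and 3 counts in PAD2KO batch 2 and 24, 19 and 12 counts in WT batch 2, or 2.46 and 2.38 CPM against 17.7, 15.1 and 12.9 CPM. In batch 1 it had 14, 4 and 13 counts in PAD2KO and 8, 8 and 5 counts in WT, or 11.2, 2.82 and 9.65 CPM against 6.31, 5.76 and 4.03 CPM. The genotypes were separate in batch 2 and overlapped in batch 1. In batch 2, PAD2KO stood at 0.156 of WT (6 against 55 counts, exact counting interval 0.0549 to 0.362), with a fitted log2 fold change of −2.62 ± 0.566 (SE; adjusted p = 0.00662). In batch 1 the log2 fold change of PAD2KO over WT was 0.52 (95% interval −0.42 to 1.461, adjusted p = 0.959).

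The difference between these genotype effects of Ptgfr was −3.14 ± 0.742 on the log2 scale (adjusted p = 0.0230), where 1.62% of all genes were called (0.665% higher, 0.957% lower), and 1 of 8 members, Ptgfr, was called. At an unadjusted p under 0.05 Ptgs1 joined it, as did 11.6% of all genes. By batch, the log2 fold change was −1.64 (adjusted p = 0.0662) in PAD2KO and 1.501 ± 0.415 (SE; adjusted p = 0.00850) in WT. These calls rest on few reads. Ptgfr passed the count filter only through libraries where it is higher (WT 5, WT 6, WT 7, PAD2KO 1 and PAD2KO 3). The calls compare the groups of those same libraries with the others, which limits them further. DESeq2 gave Ptgfr no adjusted p for the genotypes in batch 2 or for the interaction. Ptgfr fell below the count filter without WT 5, WT 6 or WT 7, and its genotype call in batch 2 was lost without PAD2KO 7 (adjusted p = 0.145). The interaction was lost without WT 3, PAD2KO 1, PAD2KO 3, PAD2KO 6 or PAD2KO 7 (adjusted p = 0.0505 to 0.151). With length offsets, the adjusted p was 0.0914 for the genotypes in batch 2, 0.0961 for the interaction and 0.115 for the batches in WT, the deposited effective length of Ptgfr running from 459 to 6410 bases. The summed levels of smooth muscle and leukocyte markers also differed between the genotypes of batch 2, S100a8 being a large part of the leukocyte sum. Their part in the Ptgfr and Ptgis values was not tested.

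**Figure D4:**
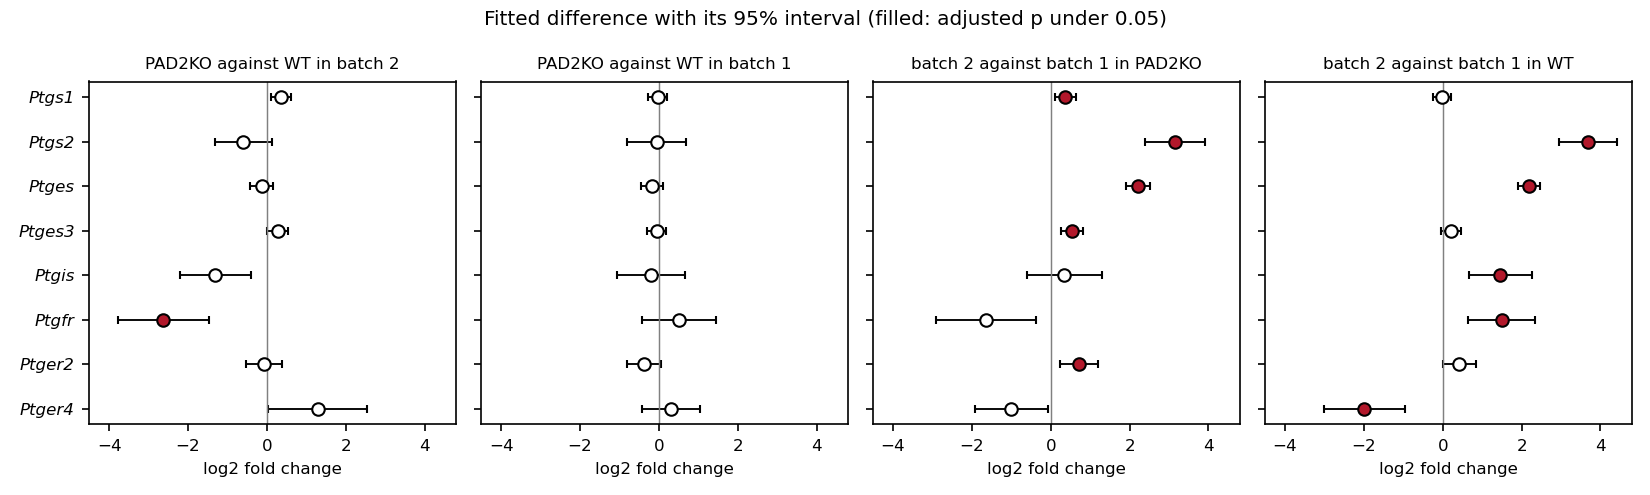
Fitted log2 fold change of each tested prostaglandin gene in 4 comparisons, with bars for the 95% interval and filled points where the adjusted p is under 0.05; the x axes are shared and linear. Ptgs2 and Ptges are filled and to the right in both batch comparisons, no point is filled for PAD2KO against WT in batch 1, and Ptgfr alone is filled for PAD2KO against WT in batch 2.

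Apart from Ptgfr, the members did not separate the genotypes past the threshold. In batch 2 the log2 fold change of PAD2KO over WT was 0.36 for Ptgs1 (95% interval 0.10 to 0.62, adjusted p = 0.143), −0.59 for Ptgs2 (−1.32 to 0.13, adjusted p = 0.461) and −0.13 for Ptges (−0.43 to 0.16, adjusted p = 0.750). For Ptges3 it was 0.28 (0.007 to 0.54, adjusted p = 0.330), for Ptger2 −0.08 (−0.54 to 0.38, adjusted p = 0.924) and for Ptger4 1.29 (0.04 to 2.54, adjusted p = 0.329). In CPM, Ptgs1, Ptges3 and Ptger4 were higher in both PAD2KO libraries than in every WT library of batch 2, and Ptgis and Ptgfr were lower. So few libraries can separate by chance, and the share of all genes so separated was not counted, so no result about the members is drawn from it. An unadjusted p under 0.05 in edgeR's test was found for 5 members and for 14.4% of all genes. These values lean on the 2 PAD2KO libraries: without PAD2KO 6, 4 members were called (Ptgfr, Ptgs1 at 0.57, Ptgs2 at −1.11 and Ptges at −0.53), and without PAD2KO 7 none was. Each of these fits has a lone PAD2KO library in batch 2, which is assumed to vary like the other groups.

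In batch 1 the log2 fold change of PAD2KO over WT lay between −0.38 for Ptger2 (95% interval −0.82 to 0.06) and 0.52 for Ptgfr, and the adjusted p was 0.920 or more for all 8 tested members. For Ptgs2 the interval was −0.79 to 0.68, for Ptges −0.45 to 0.12 and for Ptgs1 −0.27 to 0.20. With both batches in the fit and a batch term, 0 of 8 members were called, against 0.191% of all genes (0.0201% higher, 0.171% lower). None had an unadjusted p under 0.05, as 7.64% of all genes did, and DESeq2 called 0. Ptgis was the nearest at −0.72 (95% interval −1.455 to 0.02, adjusted p = 0.669).

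Ptges2 (chr2:32395896-32405772), a membrane-associated prostaglandin E synthase, had 6 and 1 counts in PAD2KO batch 2, 3, 1 and 1 in WT batch 2, 7, 4 and 5 in PAD2KO batch 1 and 5, 4 and 3 in WT batch 1. Hpgd (chr8:56294585-56321043), which oxidises prostaglandins to inactive forms, had 0 and 1 counts in PAD2KO batch 2, 0, 0 and 0 in WT batch 2, 0, 1 and 1 in PAD2KO batch 1 and 2, 5 and 1 in WT batch 1. With 40 and 11 counts over all libraries, neither passed the filter, and no direction is given for them. Ptger4 and Ptgfr passed with 104 and 113 counts, near the lower end of what the filter admits.

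Other genes of the pathway were taken as 8 lists of 100 genes, of which 96 were in the table and 57 were tested. Each count below is set against the share of all genes called in that comparison, and these small lists are not set apart from other genes by it. The lists too were chosen with earlier results of these data known. Between batches, 9.52% of all genes were higher and 9.13% lower in batch 2 in PAD2KO, and 11.7% higher and 10.6% lower in WT. Of 4 phospholipases tested, 1 rose and 1 fell in PAD2KO, and 2 rose and 1 fell in WT. Pla2g4a, the cytosolic phospholipase that frees arachidonic acid, averaged 272 ± 53.7 CPM in PAD2KO batch 2, 438 ± 28.7 in WT batch 2, 128 ± 12.5 in PAD2KO batch 1 and 143 ± 17.8 in WT batch 1 (SD, n = 2, 3, 3 and 3). It rose between batches by 1.08 (log2; adjusted p = 1.58e-06) in PAD2KO and 1.62 (adjusted p = 5.63e-11) in WT, and within batch 2 it was lower in PAD2KO than in WT by −0.69 ± 0.134 (SE; adjusted p = 0.00267). Pla2g15, a lysosomal phospholipase, fell between batches by 0.81 in PAD2KO (adjusted p = 0.00334) and by 1.19 in WT (adjusted p = 8.27e-06). Pla2g6, a calcium-independent phospholipase, rose by 0.73 in WT (adjusted p = 0.0208).

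Of 7 further synthases and reductases tested, 2 rose and 1 fell between batches in PAD2KO (9.52% and 9.13% of all genes), and 3 rose and 1 fell in WT (11.7% and 10.6%). Akr1c18, an aldo-keto reductase that breaks down progesterone and also acts on prostaglandins, averaged 35.3 ± 17.4 CPM in PAD2KO batch 2, 115 ± 44.2 in WT batch 2, 5.08 ± 3.68 in PAD2KO batch 1 and 5.49 ± 4.06 in WT batch 1. Its log2 fold change was 2.79 in PAD2KO (adjusted p = 0.0183) and 4.31 in WT (adjusted p = 0.000206). It owed its place past the count filter to batch 2, where it is higher. Akr1b1, an aldose reductase with prostaglandin F synthase activity, rose by 0.44 in PAD2KO (adjusted p = 0.0235) and 0.98 in WT (adjusted p = 5.43e-07), and Akr1b8 rose by 0.93 in WT (adjusted p = 0.000415). Gstm2, a glutathione transferase, fell by 0.78 in PAD2KO (adjusted p = 0.00084) and by 0.69 in WT (adjusted p = 0.000513). The synthases of prostaglandin D and thromboxane were barely detected, Ptgds, Hpgds and Tbxas1 having 2, 27 and 15 counts over all libraries.

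Among 3 other receptors tested, 2 fell between batches in PAD2KO (9.13% of all genes) and 1 in WT (10.6%), and none rose. Tbxa2r, the thromboxane receptor, averaged 2.41 ± 1.09 CPM in PAD2KO batch 2, 4.35 ± 1.99 in WT batch 2, 34.8 ± 3.06 in PAD2KO batch 1 and 34.9 ± 8.16 in WT batch 1. It fell by 3.79 on the log2 scale in PAD2KO (adjusted p = 2.58e-07) and by 2.92 in WT (adjusted p = 1.03e-07). It passed the count filter through batch 1, where it is higher. Ptger3, which encodes EP3, fell by 2.02 in PAD2KO (adjusted p = 0.0082). It averaged 3.6 ± 1.6 CPM in PAD2KO batch 2, near the limit for 0 counts, and 15.3 ± 8.1 CPM in PAD2KO batch 1. It passed the count filter through the other groups, where it is higher.

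Of 5 genes of transport and breakdown, 1 rose and 1 fell between batches in PAD2KO (9.52% and 9.13% of all genes) and 1 rose in WT (11.7%). Abcc4, an exporter of prostaglandins, rose between batches by 0.96 in PAD2KO (adjusted p = 0.0113) and 1.86 in WT (adjusted p = 5.6e-07), and the reductase Ptgr3 fell by 0.52 in PAD2KO (adjusted p = 0.00905). Slco2a1, the prostaglandin uptake transporter, averaged 90.2 ± 11.8 CPM in PAD2KO batch 2 and 134.5 ± 6.46 in WT batch 2, a log2 fold change of −0.58 (adjusted p = 0.0271) in a comparison where 1.71% of all genes were lower. No other gene of this list differed between genotypes past the threshold. Of the leukotriene branch, Lta4h was the 1 gene of 14 that was tested, and it changed in no comparison.

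**Figure D5:**
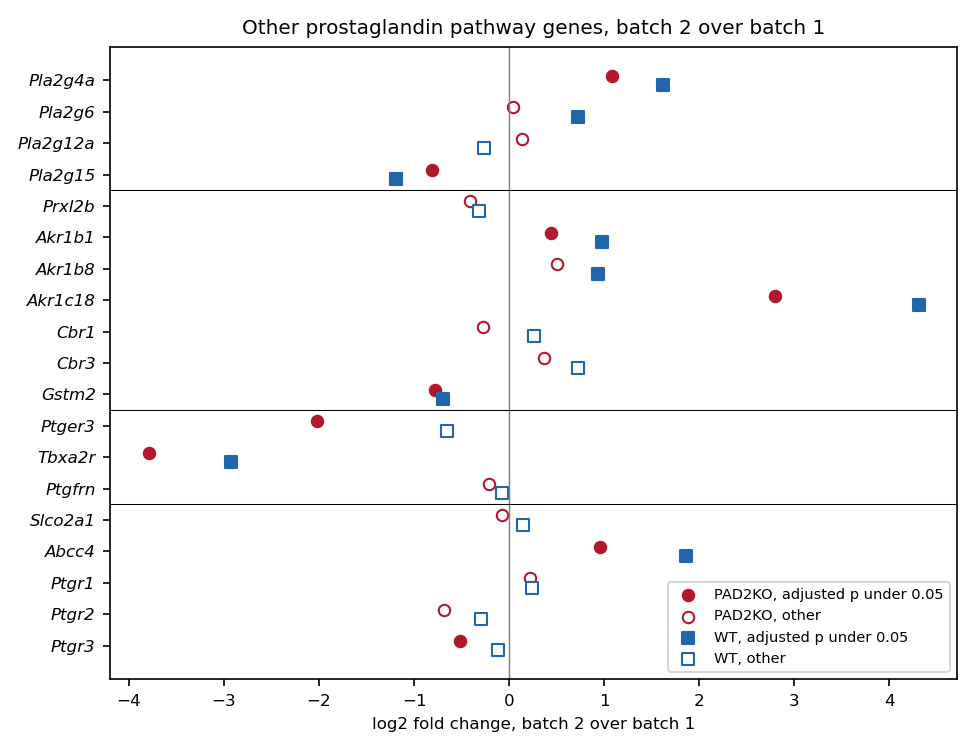
Log2 fold change of batch 2 over batch 1 for the 19 tested pathway genes of 4 lists, separated by lines (phospholipases, synthases and reductases, other receptors, transport and breakdown), as circles for PAD2KO and squares for WT, filled where the adjusted p is under 0.05. Pla2g4a, Akr1b1, Akr1c18 and Abcc4 are filled to the right in both genotypes, and Tbxa2r, Pla2g15 and Gstm2 are filled to the left in both.

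Genes that cyclic AMP induces, as EP2 and EP4 signalling does, rose for 3 of 13 tested between batches in both genotypes, with none falling, where 9.52% of all genes rose in PAD2KO and 11.7% in WT. Nr4a2, a nuclear receptor induced early by cyclic AMP, rose by 2.75 in PAD2KO (adjusted p = 7.53e-08) and 3.07 in WT (adjusted p = 9.09e-10). The growth factor gene Areg rose by 2.55 and the transcription factor gene Crem by 1.31 in PAD2KO (adjusted p = 0.000761 and 0.00481), and by 2.91 and 1.28 in WT (adjusted p = 1.04e-05 and 0.00145). Areg averaged 2.84 CPM in PAD2KO and 3.34 CPM in WT of batch 1, near the limit for 0 counts. It passed the count filter through batch 2, where it is higher. Within batch 2, 2 of 13 were higher in PAD2KO than in WT, where 1.4% of all genes were higher: the phosphatase gene Dusp1 by 0.48 (adjusted p = 0.0212) and the phosphodiesterase gene Pde4a by 0.80 (adjusted p = 0.0245).

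Of 14 tested inducers and transcription factors of Ptgs2 and Ptges, 4 rose between batches in PAD2KO (9.52% of all genes), and 5 rose and 1 fell in WT (11.7% and 10.6%). Tnfaip3 and Nfkbia, feedback inhibitors of NF-kB, rose by 2.72 and 1.00 in PAD2KO (adjusted p = 0.000113 and 0.0139) and by 2.66 and 1.85 in WT (adjusted p = 7.82e-06 and 5.01e-05). Tnfaip3 averaged 2.77 CPM in PAD2KO and 3.82 CPM in WT of batch 1, near the limit for 0 counts. It passed the count filter through batch 2, where it is higher. Jun rose by 0.81 in PAD2KO (adjusted p = 3.59e-05) and 0.79 in WT (adjusted p = 7.52e-06), and the NF-kB subunit gene Nfkb1 rose by 1.08 in PAD2KO (adjusted p = 0.00456). Fos was lower in batch 2 in WT by −0.80 (adjusted p = 1.75e-06). Within batch 2 it was higher in PAD2KO by 0.44 (adjusted p = 0.0376), and its interaction passed at 0.66 (adjusted p = 0.0274). The inducers themselves were all but undetected, with 1 count of Il1a, 1 of Il1b and 2 of Tnf over all libraries.

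Of 10 tested Hsp90 chaperones and co-chaperones, the machinery that p23 serves, 6 rose between batches in PAD2KO (9.52% of all genes) and 4 in WT (11.7%), with none falling and none differing between genotypes. Hsp90ab1 averaged 1701 ± 50.2 CPM in PAD2KO batch 2, 1780 ± 91.8 in WT batch 2, 1151 ± 142 in PAD2KO batch 1 and 1160 ± 85.9 in WT batch 1. Its log2 fold change was 0.56 in PAD2KO (adjusted p = 0.000555) and 0.62 in WT (adjusted p = 3.38e-05). Hsp90aa1 rose by 0.54 in PAD2KO (adjusted p = 0.000513) and 0.53 in WT (adjusted p = 0.000141), and Hspa8 by 0.49 (adjusted p = 0.000853) and 0.54 (adjusted p = 4.53e-05). In batch 1 no gene of the 8 lists differed between genotypes past the threshold.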

How the data were processed

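RNA of sorted fibroblasts was extracted with a silica column kit and, per the labels' protocols, sequencing libraries came from a SMARTer mRNA kit used for SmartSeq2. The authors deposited 1 table with estimated counts, TPM and effective gene lengths in bases per library. The submitters' processing notes name GRCm39, Salmon 1.3.2, fastp and DESeq2 1.46.0; their roles, the annotation and the use of strand are not given in the sources used here. Copies of a molecule counted as separate reads, and estimated counts divide reads between similar sequences by a model. Of 56065 entries, 23133 carried no symbol (3.80% to 6.40% of counts) and did not enter totals or tests. All others were added up by symbol and rounded to whole counts. The tests used edgeR 4.0.16 under R 4.3.3 (TMM, filterByExpr on genotype, robust quasi-likelihood fit of 4 group means over all 11 libraries, common biological coefficient of variation 0.1145), with Benjamini-Hochberg adjustment at 0.05. CPM are scaled to a TMM-adjusted total of 1000000 in tested genes. A second model with batch and genotype terms gave PAD2KO against WT over both batches. The SE of a log2 fold change is its size over the root of the F statistic, its 95% interval uses the test's own degrees of freedom, and counting intervals are exact conditional ones at 95%, with depth as exposure. Alternatives were other scalings and filters, DESeq2 1.42.0, length offsets, subsets of libraries and a replicate block. The tests were also run on simulated counts drawn from a common mean per gene, with changes added to some genes. Those counts lack the wide batch differences of these data, so they cannot show how the tests perform here.

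The members and gene lists were chosen with earlier results of these data known. Named are all 10 members, up to 4 called genes per list and comparison by p, and the 3 most alike genes per tested member. WT 5 and WT 6 were the most alike pair (chi-square 1.52 per degree of freedom, the other pairs within a group 2.18 to 3.40). Copies of a molecule count as separate reads, so a value above counting noise cannot show that they are separate samples. They were treated as separate, as labelled. Positions are from GENCODE M21 on GRCm38, another assembly than the one the submitters name, and serve for orientation. Promoters are from RefSeq on GRCm38.p6.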

Additional observations from a re-analysis of the deposited data

Results flagged for a closer look

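Ptgs1 in PAD2KO 7, at 1336 CPM, stood apart from the other 4 PAD2KO libraries, which had 846 to 965 CPM. The gap to its nearest neighbour was 0.713 of the range of the 5 libraries on the log2 scale, just past the critical value for 5 samples. Of 16 such groups of libraries checked, this was the 1 past its value. Each group pooled both batches of a genotype. Chance alone passes about 1 in 20 where a gene does not differ by batch, and that rate does not hold for genes that do. The same library was the lowest of batch 2 for Ptgs2 and Ptges.

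The PAD2KO against WT difference of Ptgfr was not the same in the batches: batch 2 minus batch 1 came to −3.14 on the log2 scale in the interaction test (edgeR, adjusted p = 0.0230). Ptgfr had 6 counts in PAD2KO and 55 in WT over batch 2, and 31 in PAD2KO and 21 in WT over batch 1.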

How the results depend on the processing

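The batch differences of Ptgs2 and Ptges passed the threshold under all 20 settings, the reported one included, in both genotypes, with log2 fold changes of 1.95 to 3.51 in PAD2KO and 2.95 to 3.80 in WT for Ptgs2, and 1.82 to 2.51 and 2.15 to 2.22 for Ptges. The number of members called for PAD2KO against WT in batch 2 was 1, but 2 without a filter on low counts (adding Ptgs1), 2 with the batch fitted alone (adding Ptgis), 0 with length offsets and 0 to 4 when a library was left out. DESeq2 also called 1 member there, but it was Ptgis (adjusted p = 0.0492), and Ptgfr and Ptger4 were given no adjusted p. For batch 2 against batch 1 in PAD2KO it was 5, but 4 with upper-quartile normalization, with the genotype fitted alone and with DESeq2 (each without Ptgs1), 3 with length offsets (Ptgfr added at −2.91) and 3 to 6 without a library. In WT it was 5, but 6 without a filter (Ptger2 added, adjusted p = 0.0489), 4 with length offsets (without Ptgfr), 4 with the genotype fitted alone (Ptger4 below the filter) and 3 to 5 without a library. For the interaction it was 1, but 0 with length offsets, 0 with DESeq2, which gave Ptgfr no adjusted p, and 0 to 1 without a library. It stayed at 0 under every setting for PAD2KO against WT in batch 1 and over both batches. Beyond the cases where a library was left out or Ptgfr or Ptger4 fell below a filter, the cause of these moves was not tested.

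The replicate numbers that genotypes share (1 and 3 in batch 1, 6 and 7 in batch 2) gave no clear pairing: correlations of their deviations were 0.049, 0.01, 0.03 and 0.002. The most alike WT library had the same number for 1 and 6, but was WT 1 for 3 and WT 5 for 7. With so few libraries per group, such correlations cannot exclude a pairing. With a replicate block, 1 member (Ptgfr, −2.48, adjusted p = 0.0313) was called in batch 2, 1 for the interaction (Ptgfr, −3.26, adjusted p = 0.0495), 0 in batch 1 and 0 over both batches. With the block, Ptgis in batch 1 turned to 0.085 (log2).

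Some values that had not passed changed sign. With length offsets, Ptgs1 and Ptgs2 in PAD2KO against WT of batch 1 came to 0.046 and 0.377, Ptgs1 between batches in WT to 0.097 and the Ptges interaction to −0.025. Without 1 library, the range in batch 1 was −0.085 to 0.078 for Ptgs1, −0.324 to 0.095 for Ptgs2, −0.131 to 0.059 for Ptges3 and −0.503 to 0.101 for Ptgis. In batch 2 it was −0.527 to 0.177 for Ptges and −0.195 to 0.161 for Ptger2, between batches −0.083 to 0.08 for Ptgs1 in WT and −0.006 to 0.664 for Ptgis in PAD2KO, and −0.361 to 0.336 for the Ptges interaction. Among 899 values of members under alternatives, 841 kept direction and side of the threshold, 28 no longer passed, 9 newly passed and 21 changed sign.

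Counts over all genes moved more. PAD2KO against WT gave 13 genes in batch 1, but 58 without a filter, 2 with length offsets, 22 with the batch alone and 8 with the block. It gave 309 in batch 2, but 529 without a filter, 89 with offsets and 65 without PAD2KO 7, and 19 over both batches, but 142 without a filter, 2 with offsets, 30 with DESeq2, 4 with the block and 4 without the batch term. Batch 2 against batch 1 gave 1853 genes in PAD2KO, but 865 with offsets and 1219 with DESeq2, and 2212 in WT, but 1356 with offsets. The interaction gave 161 genes, but 323 without a filter and 26 with offsets. Totals of 962633 to 1421243 counts limit Ptgfr, Ptger4, Ptges2 and Hpgd most.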

Other observations

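The genes whose log2 CPM ran most like each member over the 11 libraries were listed by Pearson's r, as a description without a test, since the libraries fall into 2 batches that most of these values follow. For Ptgs2 they were Ier3 (0.995), Nfe2l2 (0.99) and Procr (0.989), and for Ptges Lif (0.985), Odc1 (0.985) and Ccno (0.984). For Ptgis they were Slc16a1 (0.97), Gbp9 (0.96) and Clmp (0.954), and for Ptges3 Ankrd1 (0.95), Rorb (0.929) and Acvrl1 (0.927). Ptgs1, which did not follow the batches in WT, ran most like Mob3a (0.935), Sema3e (0.907) and Capn2 (0.883). Among the receptors, Ptger2 ran most like Sec24d (0.905), Lsm8 (0.903) and Gstcd (0.902), Ptger4 most like Crtap (0.95), Swap70 (0.946) and 2310022B05Rik (0.941), and Ptgfr most like F830016B08Rik (0.875), Pde7b (0.866) and Mitd1 (0.861).

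Il6, a cytokine gene outside the lists, had 37 counts in PAD2KO batch 2, 234 in WT batch 2, 15 in PAD2KO batch 1 and 13 in WT batch 1. The neutrophil gene S100a8 had 83 counts in PAD2KO batch 2, 420 in WT batch 2, 2 in PAD2KO batch 1 and 0 in WT batch 1, and the macrophage gene Adgre1 had 42 of the 46 counts of WT batch 2 in a single library. These 3 genes were singled out after their values were seen.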
